A study of Homo sapiens with 27 samples.

Results

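The comparison set 3 arrays of Caco2 withdrawal cells against 3 arrays of Caco2 parental cells, 6 of the 27 arrays of the series, chosen by the sample labels alone, and covered all 17687 genes that could be named. Caco2 is a human colorectal cancer line. Withdrawal cells were Caco2 cells that had survived 20 cycles with the EGFR antibody cetuximab at 1 ug/ml and NK-CD16 cells, natural killer cells named for the antibody receptor CD16, and that were then grown for another 20 cycles without either agent. Resistant cells were the survivors before that second period, and their 3 arrays are used here to place each gene's level. Parental cells were the original untreated line, grown from a single clone per the labels. All 3 states were grown in the same medium with serum, and the remaining arrays measured the lines LIM1215 and SW48 in the same states. The labels do not say that replicates came from separate cultures, so p-values measure only the spread between these samples, which may be technical.

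Caco2 cells are widely used as a model of the intestinal lining because they form polarized sheets with a brush border, and they also secrete plasma proteins of the fetal liver type. CD16 on a natural killer cell binds the tail of an antibody such as cetuximab, and the coated tumour cell is then killed. A comparison of withdrawal with parental cells asks which transcripts still differed from the original line after the challenge had ended.

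Values are the deposited numbers, read as log2 intensities, and a difference of 1 is a 2-fold change. The median value of the genes on the 9 Caco2 arrays was 6.99 to 7.08. Between 43.4% and 47.7% of the genes lay above an array's background, the 95th percentile of its 612 negative controls. Across genes, which do not count as independent replicates, Pearson's r was 0.9957 to 0.9962 among withdrawal arrays and 0.9954 to 0.9962 among parental arrays. It was 0.9923 to 0.9936 between withdrawal and parental arrays, and 0.977 to 0.9779 between withdrawal and resistant arrays. Of 12 measured colon epithelial markers, 8 were above background in withdrawal cells and the same 8 in parental cells, among them the adhesion protein EPCAM, the keratins KRT8, KRT18 and KRT19 and the intestinal factor CDX2. Natural killer cell transcripts were almost all dim in withdrawal and parental cells: 1 of 23 markers, IL2RG, was above background in each. IL2RG is a cytokine receptor chain encoded on the X chromosome. In resistant cells 9 of the 23 were above background, and 18 were higher than in withdrawal cells, against 11.8% of all genes. Whether natural killer cell RNA adds to the resistant levels given below was not tested. The summed marker level was 11.05 to 11.10 in withdrawal arrays, 13.10 to 13.47 in resistant arrays and 10.30 to 10.55 in parental arrays (log2).

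Withdrawal cells had less of the zinc-binding metallothioneins MT2A and MT1X and of the detoxifying enzyme MGST1, and more of CD47, the surface signal that restrains phagocytes, than parental cells. Across the genome, transcripts of the X chromosome were broadly higher and those of chromosome 7 broadly lower than in parental cells. A gene was called when its adjusted p was under 0.05 in limma's moderated test on the 9 Caco2 arrays, adjusted by Benjamini-Hochberg over all genes. By that rule 705 of 17687 genes (3.99%) differed, 400 higher (2.26%) and 305 lower (1.72%). Of the 8278 genes above background in withdrawal or parental cells, 505 (6.1%) were called, 313 higher (3.78%) and 192 lower (2.32%), and 144 of those differed by 2-fold or more. The other 200 called genes were near background in both groups, and their differences are of deposited values only. Withdrawal and parental arrays did not overlap for 4145 genes (23.4%). The median change over all genes was -0.02. With 1 array fewer the test called fewer genes: 347, 366 and 391 without withdrawal replicate 1, 2 or 3, and 457, 392 and 406 without parental replicate 1, 2 or 3. In a bulk sample, fewer cells that express a gene and less RNA per cell cannot be told apart.

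CD47 had the largest difference between deposited values among the genes that rose. It read 9.55, 9.37 and 9.71 in withdrawal arrays, against 5.65, 5.25 and 5.06 in parental arrays, a change of 4.22 (SE 0.221, adjusted p = 1.81e-05). The parental level was under background, so the rise was at least 3.45-fold, a lower bound that is smaller than the measured folds of GPR83 (9.16-fold) and ERVH48-1 (8.36-fold). Resistant arrays, at 6.21, 5.84 and 5.39, were also under background, so CD47 was high in withdrawal cells and in neither of the other Caco2 states.

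Several more of the 12 largest rises were also higher in withdrawal cells than in both other states, by 2.03 or more against resistant cells. GPR83, a G protein-coupled receptor, read 11.44, 11.74 and 11.29 in withdrawal arrays, against 8.29, 8.0 and 8.60 in parental arrays (3.19, SE 0.183, adjusted p = 2.11e-05, 9.16-fold). TLR7, the endosomal sensor of single-stranded RNA, read 9.56, 9.49 and 9.47 in withdrawal arrays, against 6.39, 6.75 and 6.12 in parental arrays (3.08, SE 0.153, adjusted p = 1.48e-05, at least 3.36-fold). Arrays that did not overlap were required for naming both genes, and resistant arrays averaged 7.38 for GPR83 and 6.16 for TLR7. PLPP4, a phosphatase of lipid phosphates, read 9.61, 9.61 and 9.67 in withdrawal arrays, against 6.58, 6.67 and 7.09 in parental arrays (2.85, SE 0.188). RHOBTB1 rose by 2.57 (SE 0.138, 5.95-fold) and FAM171B, a membrane protein, by 2.59 (SE 0.18, 6.02-fold). Against resistant cells RHOBTB1 was higher by 2.25 and FAM171B by 2.03. FAM171B was above background in all 3 states, averaging 10.63 in resistant and 10.07 in parental arrays. PLPP4 was under background in resistant and in parental cells, and its rise was at least 3.35-fold against resistant and at least 3.67-fold against parental cells.

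For the other large rises the resistant level was further above the parental one. C2, a protease of the classical complement pathway, read 9.89, 9.95 and 9.84 in withdrawal arrays, against 7.06, 5.71 and 6.50 in parental arrays, a change of 3.47 (SE 0.286, adjusted p = 0.000203, at least 4.4-fold). Resistant arrays were higher still, so withdrawal cells lay 3.30 below them and above the parental level. ASGR2, a subunit of the hepatocyte receptor that clears galactose-ended glycoproteins, read 10.74, 10.32 and 10.68 in withdrawal arrays, against 8.03, 7.78 and 8.16 in parental arrays (2.59, SE 0.151, 6.03-fold). It too was intermediate, 0.93 under resistant cells. The retroviral envelope gene ERVH48-1 rose by 3.06 (SE 0.123, 8.36-fold), the kinase gene MAP3K21 by 2.86 (SE 0.213, at least 2.11-fold), RIPOR2 by 2.61 (SE 0.126, at least 4.06-fold) and ANXA6, a membrane-binding annexin, by 2.33 (SE 0.124, 5.01-fold). Those last 4 genes were also higher than in resistant cells, by 0.47 (ANXA6) to 1.13 (ERVH48-1). ANXA6 lost that second difference in 3 of 15 alternative settings.

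MGST1, a membrane-bound glutathione transferase that protects against oxidized lipids, had the largest difference among the genes that fell. It read 5.86, 6.02 and 6.36 in withdrawal arrays, against 11.08, 11.24 and 11.17 in parental arrays, a change of -5.08 (SE 0.242, adjusted p = 1.43e-05). The withdrawal level was under background, so the fall was at least 9.02-fold, and resistant arrays were low as well, at 5.45, 4.48 and 5.34. PSD3, an exchange factor for ARF6 in membrane traffic, read 4.87, 4.83 and 3.86 in withdrawal arrays, against 8.81, 8.99 and 9.19 in parental arrays (-4.47, SE 0.248, at least 2.01-fold). FABP5, a carrier of fatty acids, read 8.84, 8.99 and 8.87 in withdrawal arrays, against 11.30, 10.93 and 11.15 in parental arrays (-2.22, SE 0.213, 4.67-fold). FABP5 was low in resistant cells too (0.32 higher in withdrawal than in resistant cells, adjusted p = 0.338), while PSD3 was near background in both withdrawal and resistant cells.

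PLAC8, AGR2 and BST2 were lower than in both other states. PLAC8, a cysteine-rich protein of placenta and gut epithelium, read 8.73, 8.52 and 8.32 in withdrawal arrays, against 11.40, 11.66 and 11.40 in parental arrays (-2.96, SE 0.143, 7.78-fold), and lay 4.25 below resistant cells. AGR2, an endoplasmic reticulum protein that mice need to make intestinal mucin, read 7.31, 8.10 and 7.24 in withdrawal arrays, against 10.53, 10.33 and 10.46 in parental arrays (-2.89, SE 0.21, at least 5.03-fold), and lay 4.87 below resistant cells. BST2, or tetherin, which holds budding viruses at the cell surface, fell by 2.23 (SE 0.236, at least 1.61-fold) and was 4.72 lower than in resistant cells. The withdrawal arrays were the lowest of the 9 for these 3 genes. P2RY1, a receptor for ADP, differed by -3.48 and CDCA7L, a MYC-binding nuclear protein, by -3.43. Their parental levels were close to background, so no fold is given for P2RY1 and the fall of CDCA7L was at least 1.01-fold, and both were near background in resistant cells too. The zinc-finger gene ZNF680 fell by 2.76 (SE 0.33, at least 1.73-fold) and the polyamine carrier SLC18B1 by 2.36 (SE 0.286, at least 1.78-fold).

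**Figure D1:**
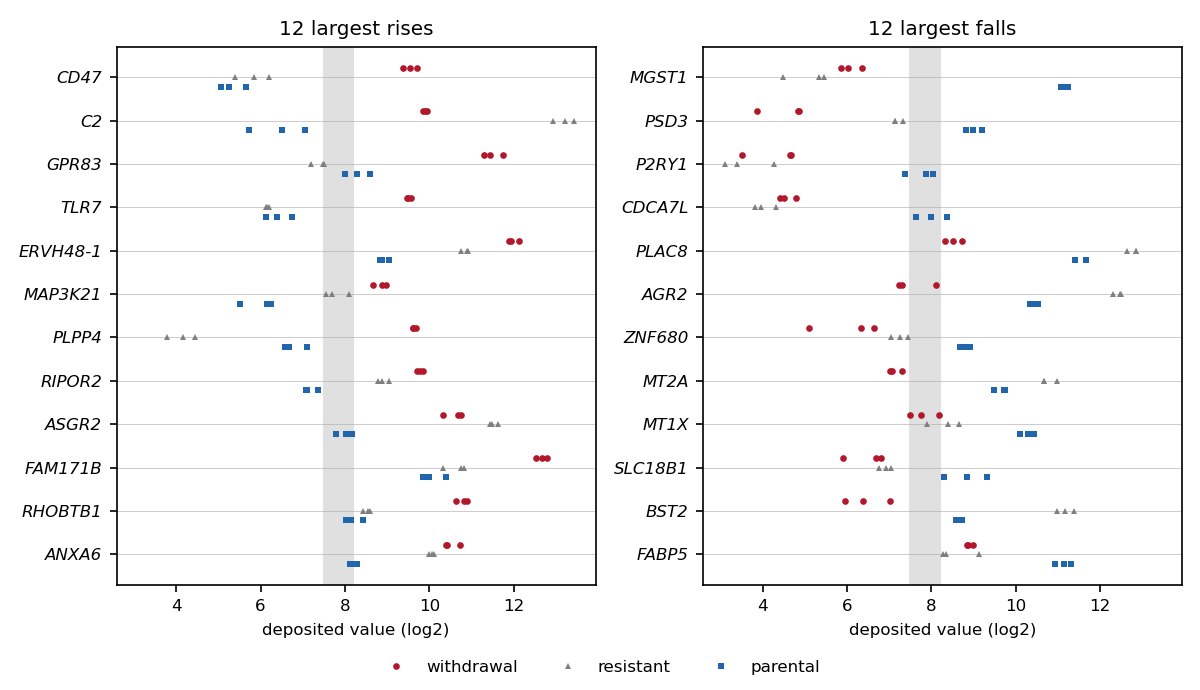
Deposited value (x axis, log2) of the 12 genes with the largest rise and the 12 with the largest fall, withdrawal minus parental, on each Caco2 array: withdrawal (red circles), resistant (grey triangles) and parental (blue squares). The grey band spans the arrays' background, 7.50 to 8.19. Withdrawal and parental points are apart for all 24 genes, which the rule for naming them required, and CD47 is at 9.37 or above only in withdrawal arrays.

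Metallothioneins are small cysteine-rich proteins that bind zinc and copper and are switched on by the zinc sensor MTF1 through metal response elements, short sites close to their start. Of the 8 metallothionein genes measured, MT1B, MT1E, MT1F, MT1H, MT1M, MT1X and MT2A were called lower, only MT2A and MT1X of them above background, which makes 7 of the 13 measured genes of the metallothionein and zinc list, with 0 higher. The list's median change was -0.78, against -0.02 over all genes, where 1.72% were called lower. The promoters of MT2A and MT1X, the called members that were above background, are shown because their transcripts fell together, followed by that of SLC30A1, the zinc exporter gene, which did not fall. Each runs 5′ to 3′ along the gene's strand over the 250 bases before the RefSeq start (GRCh38.p14), and capitals mark matches to TGCACNC or TGCGCNC, the core of the metal response element, on either strand. The windows are chr16:56608334-56608583 (plus strand) for MT2A, chr16:56682220-56682469 (plus strand) for MT1X and chr1:211579162-211579411 (minus strand) for SLC30A1.
MT2A: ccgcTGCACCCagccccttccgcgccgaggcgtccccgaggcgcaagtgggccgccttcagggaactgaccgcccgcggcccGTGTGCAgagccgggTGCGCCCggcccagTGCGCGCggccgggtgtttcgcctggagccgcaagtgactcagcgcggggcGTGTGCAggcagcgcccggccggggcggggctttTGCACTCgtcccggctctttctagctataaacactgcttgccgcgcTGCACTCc
MT1X: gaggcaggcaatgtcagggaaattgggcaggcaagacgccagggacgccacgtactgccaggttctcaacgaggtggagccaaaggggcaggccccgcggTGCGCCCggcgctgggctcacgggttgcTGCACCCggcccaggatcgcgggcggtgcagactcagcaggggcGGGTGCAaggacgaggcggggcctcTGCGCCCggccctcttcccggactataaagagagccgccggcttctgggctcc
SLC30A1: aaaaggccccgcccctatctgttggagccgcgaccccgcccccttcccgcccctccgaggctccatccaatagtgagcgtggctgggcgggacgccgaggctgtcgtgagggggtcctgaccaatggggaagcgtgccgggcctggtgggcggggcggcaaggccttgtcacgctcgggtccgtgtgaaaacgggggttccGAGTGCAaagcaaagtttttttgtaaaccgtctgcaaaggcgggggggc

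The MT2A window held 7 matches, that of MT1X 4 and that of SLC30A1 1. Among 35116 RefSeq promoter windows of the same length, 24.8% held at least 1 match and 1.58% at least 3. MT1H, with 8 matches, and MT1B, with 3, were the other called metallothioneins found in the promoter table. A match is a run of letters and no measurement of MTF1 binding.

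MT2A read 7.02, 7.30 and 7.06 in withdrawal arrays, against 9.74, 9.72 and 9.49 in parental arrays, a change of -2.52 (SE 0.139, adjusted p = 2.06e-05, at least 3.17-fold). MT1X read 8.17, 7.50 and 7.76 in withdrawal arrays, against 10.44, 10.11 and 10.30 in parental arrays, a change of -2.47 (SE 0.224, adjusted p = 0.000414, at least 4.74-fold). The groups did not overlap for either gene, which the rule for naming the largest falls required. Both kept their call in each of 17 alternative settings, which reuse the arrays that picked them. Their resistant levels differed: MT2A averaged 10.77 in resistant arrays (withdrawal minus resistant -3.64), while MT1X averaged 8.32, a difference of -0.51 that did not pass (adjusted p = 0.141). MT1F (-2.40, SE 0.376), MT1E (-1.98, SE 0.244), MT1B (-1.49), MT1H (-0.78) and MT1M (-0.71) were near background in both groups. MT1G read 5.64, 6.78 and 7.77 in withdrawal arrays, against 8.19, 8.60 and 8.52 in parental arrays, without overlap, yet the wide spread of the withdrawal arrays left it short of the test (-1.71, adjusted p = 0.0659). These genes are nearly identical copies that can share probe signal, so the signal cannot be divided among the members with certainty. SLC30A1 read 12.69, 12.79 and 12.76 in withdrawal arrays, against 12.27, 12.27 and 12.34 in parental arrays (0.45, adjusted p = 0.0554). The zinc importers SLC39A4 (-0.02), SLC39A5 (-0.06) and SLC39A14 (0.09) did not pass. With any 1 of the 6 arrays left out, 4 or 5 of the 7 lower genes were called.

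Genes of the liver-type secretory program of Caco2 cells were partly higher. Of the 21 measured, 8 rose and 0 fell (median 0.17), where 2.26% of all genes were called higher. SERPINA1, the inhibitor of neutrophil elastase, read 13.42, 13.44 and 13.32 in withdrawal arrays, against 11.44, 11.54 and 11.59 in parental arrays, a change of 1.87 (SE 0.106, adjusted p = 2.11e-05, 3.66-fold). KNG1, the precursor of bradykinin, read 9.56, 9.28 and 9.42 in withdrawal arrays, against 7.68, 7.34 and 7.57 in parental arrays (1.89, SE 0.148, at least 3.13-fold). Withdrawal arrays were above all parental arrays for both, and below resistant arrays by 2.35 for SERPINA1 and 0.64 for KNG1. APOH, a phospholipid-binding plasma protein, rose by 1.08 (SE 0.123, 2.11-fold), A1CF, the cofactor of apolipoprotein B editing, by 0.78, the iron carrier TF by 0.64 and the fetal plasma protein AHSG by 0.62. HPX (1.31) and HP (0.95), which capture free haem and haemoglobin, were called but near background in both groups, and HPX lost its call in 7 of 16 settings. The most typical members did not pass: ALB, serum albumin, read 12.70, 12.60 and 12.72 in withdrawal arrays, against 12.26, 12.37 and 12.05 in parental arrays (adjusted p = 0.0941), and AFP, its fetal counterpart, changed by 0.01. The fibrinogen chains FGA (0.07), FGB (0.03) and FGG (-0.32) did not pass. In resistant cells 17 of the 21 genes were higher than in withdrawal cells (11.8% of all genes were), with ALB 3.72 and AFP 3.28 higher there. With any 1 of the 6 arrays left out, between 4 and 6 of the 21 were called higher.

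Each of the lipoprotein and drug-handling lists had 2 genes called higher, where 2.26% of all genes were. APOC3, an inhibitor of triglyceride clearance, read 11.82, 11.67 and 11.64 in withdrawal arrays, against 10.27, 9.37 and 9.43 in parental arrays, a change of 2.03 (SE 0.219, adjusted p = 0.0011, 4.07-fold). APOA1, the main protein of high-density lipoprotein, rose by 0.57 (SE 0.109, lost in 6 of 17 settings). These were 2 of 19 lipoprotein genes, with 0 lower and a median of 0.14. Of 20 genes of bile acid, drug and steroid metabolism, the oxidase CYP3A5 (1.12, SE 0.133) and the esterase CES1 (0.94, SE 0.126) rose, and 0 fell.

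Antioxidant and conjugating enzymes, targets of the transcription factor NRF2, were called higher in 5 of 19 cases and lower in 0 (median 0.22), where 2.26% of all genes were called higher. AKR1C1, a reductase of aldehydes and steroids, read 10.00, 9.94 and 9.86 in withdrawal arrays, against 8.53, 8.71 and 8.65 in parental arrays, a change of 1.30 (SE 0.134, adjusted p = 0.000858, 2.47-fold). GSTA1, a glutathione transferase, read 8.70, 8.54 and 8.51 in withdrawal arrays, against 7.27, 7.33 and 7.32 in parental arrays (1.27, SE 0.111, at least 1.77-fold). These gaps were wide beside the spread within groups, and in the opposite direction to MGST1. The others were ALDH3A1 (1.12, near background in both groups), AKR1C2 (0.95) and the quinone reductase NQO1 (0.65, SE 0.1). The classic NRF2 targets HMOX1 (0.28), GCLC (0.13), GCLM (0.22), TXNRD1 (-0.14) and SRXN1 (-0.02) did not pass. AKR1C1 and AKR1C2 are close relatives that may share signal. Between 3 and 5 of the 5 were called with any 1 of the 6 arrays left out.

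**Figure D2:**
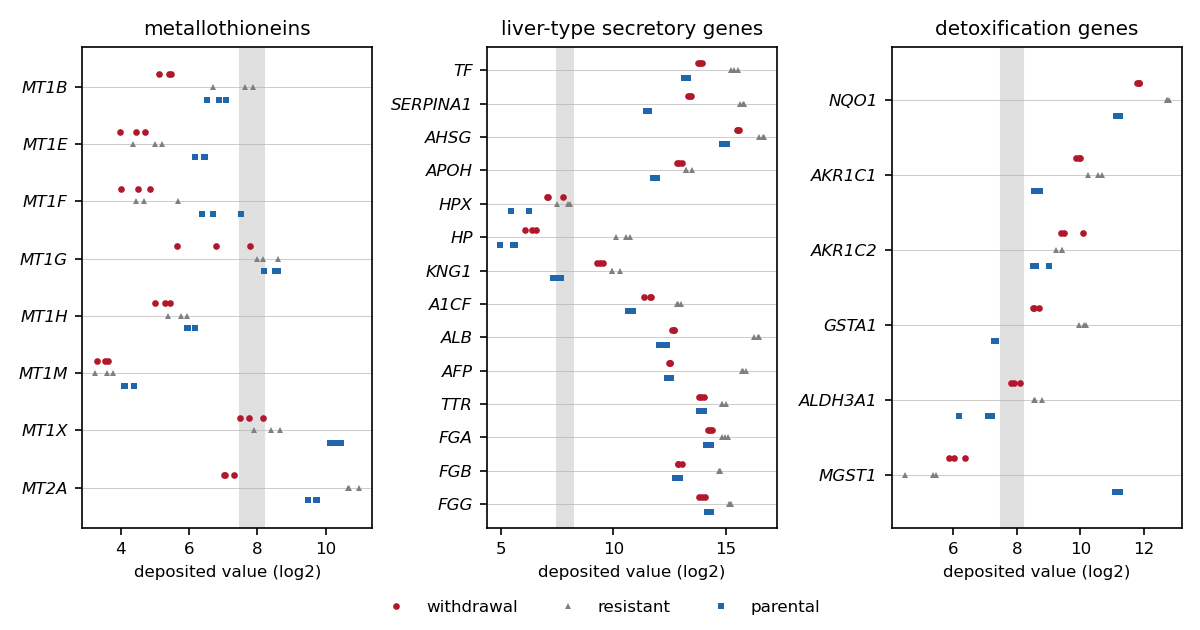
Deposited value (x axis, log2; the axis differs between panels) of metallothioneins, liver-type secretory genes (the 8 called ones and, below them, 6 others) and called detoxification genes with MGST1, on each withdrawal (red circles), resistant (grey triangles) and parental (blue squares) array of Caco2. The grey band is the arrays' background. MT2A and MT1X are the metallothioneins whose parental points reach above 9, and SERPINA1 and KNG1 lie between the resistant and parental points in withdrawal arrays.

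Complement genes had 3 of 23 higher and 0 lower (median 0.15), where 2.26% of all genes were called higher. Beside C2, CFB, the protease of the alternative pathway, read 10.99, 10.78 and 10.85 in withdrawal arrays, against 9.14, 9.59 and 9.86 in parental arrays (1.35, SE 0.179, adjusted p = 0.00354, 2.54-fold). C4BPA, which binds and disables C4b, rose by 0.84 (SE 0.14). C3, the central component, was near background in both groups, and the surface regulators CD46 (0.06), CD55 (-0.22) and CD59 (0.12) did not pass. Without parental replicate 1, 5 of the 23 were called higher.

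Most genes of antigen presentation and interferon response were not above background in withdrawal or parental cells. Above it were 7 of 17 class I, 0 of 13 class II, 5 of 25 interferon gamma and 5 of 34 type I interferon genes. Over all genes, 2.26% were called higher and 1.72% lower than in parental cells. Of 17 class I presentation genes 0 passed, and their median change was 0.00. B2M, the constant chain of class I, changed by 0.33 (adjusted p = 0.229) and TAPBP, a peptide-loading chaperone, by 0.01. In resistant cells 16 of the 17 were higher than in withdrawal cells, where 11.8% of all genes were. Of 25 interferon gamma genes 1 fell and 0 rose (median 0.04): CASP4, an inflammatory caspase that senses bacterial lipopolysaccharide, read 8.04, 7.83 and 7.56 in withdrawal arrays, against 9.42, 9.76 and 9.39 in parental arrays (-1.72, SE 0.2, adjusted p = 0.00156, at least 2.84-fold). Of 34 type I interferon genes 4 were called higher and 2 lower (median 0.11). OAS1 (2.43) and OAS3 (1.49), which make the activator of RNase L, were near background in both. PARP9 (0.53) and PARP14 (0.46) were higher, and BST2 and the ISG15-conjugating enzyme UBE2L6 (-1.0, SE 0.185, lost in 5 of 17 settings) lower. In resistant cells 31 of the 34 exceeded the withdrawal level, again against 11.8% of all genes. With any 1 of the 6 arrays left out, 2 of the 34 were called higher, the near-background OAS1 and OAS3. PARP9 and PARP14 lost their call each time. CD74, the class II chaperone, was called (1.12) near background in both groups and was the 1 called gene of 13 class II genes.

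Most surface ligands that natural killer cells read were not called. Of 23 activating and adhesion ligands 0 rose and 2 fell (median -0.11), where 2.26% of all genes were called higher and 1.72% lower. NCR3LG1, or B7-H6, the ligand of the activating receptor NKp30, read 10.67, 10.86 and 10.85 in withdrawal arrays, against 11.99, 11.93 and 11.76 in parental arrays (-1.10, SE 0.149, adjusted p = 0.00382, 2.14-fold). ULBP1, a ligand of NKG2D, fell by 0.82 (SE 0.172, at least 1.36-fold) and lost its call in 7 of 17 settings. NCR3LG1 was 1.39 higher in withdrawal than in resistant cells and so lay between the other states, while ULBP1 was near background in both withdrawal and resistant cells. MICA (-0.15), MICB (-0.27), PVR (-0.04) and ICAM1 (0.05) did not pass.

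Of 21 inhibitory ligands 2 rose and 2 fell (median 0.10), where 2.26% of all genes were called higher and 1.72% lower. The rises were those of CD47 and CEACAM1. CEACAM6, an adhesion protein of the colon surface, read 7.98, 7.50 and 7.33 in withdrawal arrays, against 9.56, 9.64 and 9.91 in parental arrays, a change of -2.10 (SE 0.178, adjusted p = 0.000251, at least 3.28-fold). CEACAM5, the carcinoembryonic antigen, read 8.17, 8.02 and 8.26 in withdrawal arrays, against 9.93, 9.63 and 9.50 in parental arrays (-1.54, SE 0.209, 2.9-fold). The groups were apart for both, and their resistant levels were also higher than in withdrawal cells, by 1.92 and 2.37. Their relative CEACAM1, which inhibits natural killer and T cells through like-to-like binding, went the other way. It read 10.42, 10.41 and 10.49 in withdrawal arrays, against 9.44, 9.17 and 9.63 in parental arrays (1.03, SE 0.139, 2.04-fold), and was 4.24 below resistant cells. CD274, or PD-L1, was near background in both groups.

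EGFR, the target of cetuximab, read 9.93, 9.68 and 9.60 in withdrawal arrays, against 9.93, 9.53 and 9.82 in parental arrays. The arrays overlapped, with a change of -0.02 (SE 0.153, adjusted p = 0.972), and EGFR was 1.17 higher than in resistant cells. Of 13 ErbB receptors and ligands 0 passed. Of 19 genes that report MAPK pathway output 2 rose and 2 fell (median -0.14), where 2.26% of all genes were called higher and 1.72% lower. The AP-1 factor FOS rose by 1.02 (SE 0.131, 2.03-fold) and the early growth response factor EGR1 by 0.67 (SE 0.122, lost in 4 of 17 settings). The pathway inhibitor SPRED1 (-0.53, lost in 12 of 17 settings) fell. FOSL1 was called lower (-0.87, SE 0.143), too close to background for a fold.

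Epithelial differentiation genes changed singly, and over all genes 2.26% were called higher and 1.72% lower. Of 21 goblet and mucosal genes 3 fell and 1 rose (median -0.06): AGR2, AGR3 (-1.36) and the membrane mucin MUC13 were lower and the lectin ZG16 (1.19) higher, AGR3 and ZG16 near background in both groups. MUC13 read 6.37, 6.76 and 6.72 in withdrawal arrays, against 7.91, 7.95 and 7.96 in parental arrays (-1.33, SE 0.147), too close to background for a fold. LYZ, the lysozyme of Paneth cells, read 11.14, 11.21 and 10.86 in withdrawal arrays, against 8.98, 8.80 and 8.81 in parental arrays (2.21, SE 0.126, adjusted p = 2.11e-05, 4.61-fold). LYZ is also a myeloid marker. It was the 1 called gene of 15 B cell and myeloid markers, of which the same 3 (CD14, LYZ and CSF1R) were above background in withdrawal and in parental cells. The summed level of those markers, LYZ included, was 11.41 to 11.69 in withdrawal arrays and 10.24 to 10.55 in parental arrays (log2). In resistant arrays it was 13.59 to 13.66. Because LYZ is part of the sum, the sum cannot show whether other myeloid transcripts rose with it. The median change of the 15 markers was 0.02, and a myeloid source of LYZ was not tested. KRT23, a keratin of simple epithelia, read 10.40, 10.11 and 10.19 in withdrawal arrays, against 8.47, 8.78 and 8.62 in parental arrays (1.61, SE 0.124, 3.05-fold) and was also 2.12 above resistant cells. It was the 1 called gene of 9 keratins. CHGB, a granule protein of hormone-secreting cells, differed by 1.51 and lost its call in 9 of 17 settings. Of 24 enterocyte genes 1 rose (USH1C, 0.57) and 2 were lower (EPS8 and ENPEP, near background in both groups), and USH1C and EPS8 each lost their call in 9 of 17 settings. Of 17 intestinal transcription factors PROX1 (0.71, SE 0.127) rose, GATA4 was called near background, and 0 fell. Of the 12 colon epithelial markers GUCY2C was called higher (0.91) near background in both groups, and 0 fell. GUCY2C lost its call in 6 of 17 settings.

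Of 19 genes of the WNT and stem cell list 2 rose, 1 was lower and 16 did not pass (median 0.25, where 2.26% of all genes were called higher and 1.72% lower). NKD1, a feedback inhibitor of the pathway, read 12.53, 12.77 and 12.68 in withdrawal arrays, against 11.34, 11.59 and 11.53 in parental arrays (1.18, SE 0.131, adjusted p = 0.0013, 2.26-fold), and AXIN2, another, rose by 0.68 (SE 0.111). SMOC2 was lower, near background in both groups. Of 24 mesenchymal and TGF-beta genes COL4A1, a chain of basement membrane collagen, was called higher near background in both groups (0.97), and 3 fell: the cytokine TGFB1 (-0.95, SE 0.169), the intermediate filament VIM (-0.78, SE 0.148) and the matrix protein FN1 (-0.47, SE 0.101). VIM lost its call in 8 and FN1 in 9 of 17 settings, and with any 1 of the 6 arrays left out 0 or 1 of the 3 were called. DSG2, a desmosomal cadherin, fell by 0.69 and was the 1 called gene of 22 junction genes. TM4SF1, a surface tetraspanin-like protein, fell by 0.60 and TSPAN8 was lower near background, which made 2 of 18 adhesion genes. The glucose transporter SLC2A1 fell by 0.77 (SE 0.108). In NF-kappaB and cytokine genes CSF1 (1.04, SE 0.179, at least 1.52-fold) and the feedback inhibitor TNFAIP3 (0.60, SE 0.102) rose and CXCL5 was lower near background, 3 of 22.

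Of the lists without any call, replication and mitosis (24 genes, median -0.03), cholesterol synthesis (16, -0.01) and ATF4 and unfolded protein stress (20, 0.05) had all members above background. NOTCH and hedgehog signalling (17), p53 targets (14), iron handling (10), cancer-testis antigens (16), cytosolic ribosomal proteins (8) and fibroblast and endothelial markers (15) also had 0 called. The largest differences in such lists were MCM7 (-0.52, adjusted p = 0.0614) for replication and NSDHL (0.71, adjusted p = 0.0549) for cholesterol synthesis, encoded on chromosomes 7 and X. The 1 called gene of the death receptor list (XIAP, 0.64), of oxidative phosphorylation (NDUFA1, 0.82), of the natural killer markers (IL2RG, 0.82) and the 1 higher gene of hypoxia and glycolysis (PGK1, 0.59) also lay on the X chromosome.

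The grouping by chromosome was made after the values were seen and is given as counts and medians, without a test. Of the 267 X-linked genes above background, 126 (47.2%) were called higher and 1 lower, against 3.78% higher and 2.32% lower among all genes above background. The X chromosome held 3.23% of those genes and 40.3% of their higher calls. The median change of its genes was 0.60 with quartiles of 0.38 and 0.74, and 259 of the 267 (97%) changed upward. For 220 of them all withdrawal arrays were above all parental arrays. Over all genes tested the arrays were apart, in either direction, for 23.4%. The median change of all genes above background was -0.02. Of the 414 genes of chromosome 7, 60 (14.5%) were called lower and 1 higher, with a median change of -0.35, and 378 changed downward. That chromosome held 5% of the genes above background and 31.2% of their lower calls. The remaining chromosomes together had 186 higher and 131 lower of 7597 genes (4.17% called), and their medians ran from -0.24 to 0.04. The lowest of these was chromosome 21, where 71 of 82 genes changed downward, 5 were called lower and 2 higher, followed by chromosome 10 at -0.15.

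The counts of calls moved with each array, while the medians moved little. X-linked genes called higher numbered 52, 55 and 61 without withdrawal replicate 1, 2 or 3, and 79, 61 and 69 without parental replicate 1, 2 or 3. Chromosome 7 genes called lower numbered 20, 22 and 21 without withdrawal replicate 1, 2 or 3, and 26, 22 and 20 without parental replicate 1, 2 or 3. The median change then lay between 0.56 and 0.60 for the X chromosome and between -0.37 and -0.34 for chromosome 7.

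**Figure D3:**
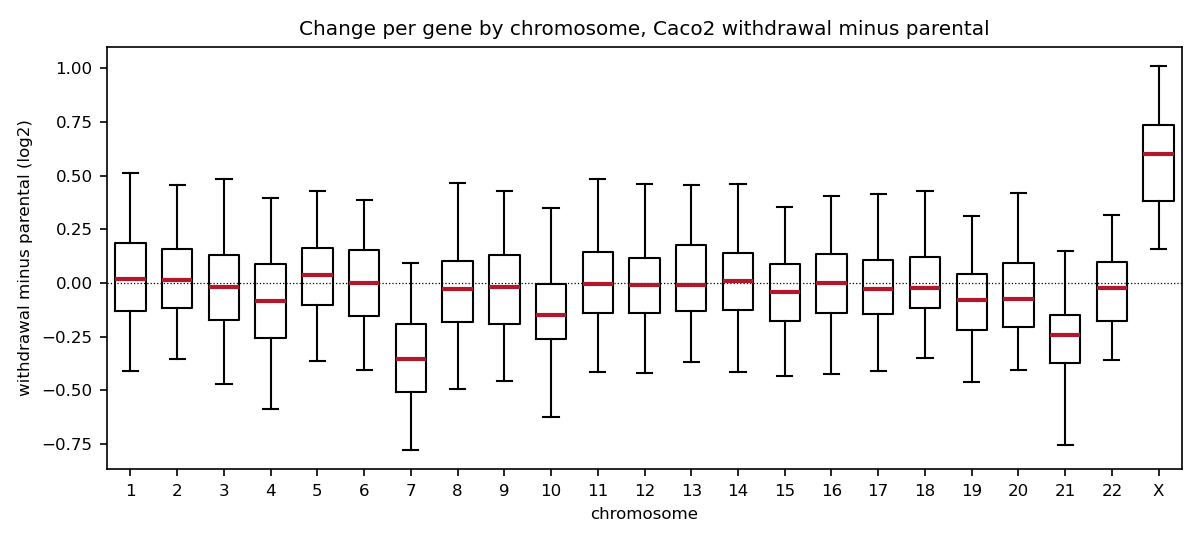
Change of each gene above background (y axis, withdrawal minus parental, log2) by chromosome (x axis). Boxes give quartiles, red lines medians, whiskers the 5th and 95th percentiles. The box of the X chromosome (0.38 to 0.74) lies above 0, that of chromosome 7 (-0.51 to -0.19) below it, and chromosome 21 has the next lowest median, -0.24.

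Each array showed the same shift. Set against the median of all genes on the array, X-linked genes had median deviations of 0.19, 0.24 and 0.23 in withdrawal arrays, 0.09, 0.12 and 0.14 in resistant arrays, and -0.34, -0.34 and -0.33 in parental arrays. Chromosome 7 genes had -0.12, -0.12 and -0.14 in withdrawal arrays, -0.06, -0.05 and -0.05 in resistant arrays, and 0.22, 0.17 and 0.19 in parental arrays. By these whole-chromosome medians, withdrawal and parental arrays were at opposite ends for both chromosomes, with resistant arrays between them. Chromosome 21 had -0.22, -0.26 and -0.23 in withdrawal arrays, 0.24, 0.18 and 0.21 in resistant arrays, and -0.01, 0.00 and 0.04 in parental arrays, so resistant arrays were highest there.

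**Figure D4:**
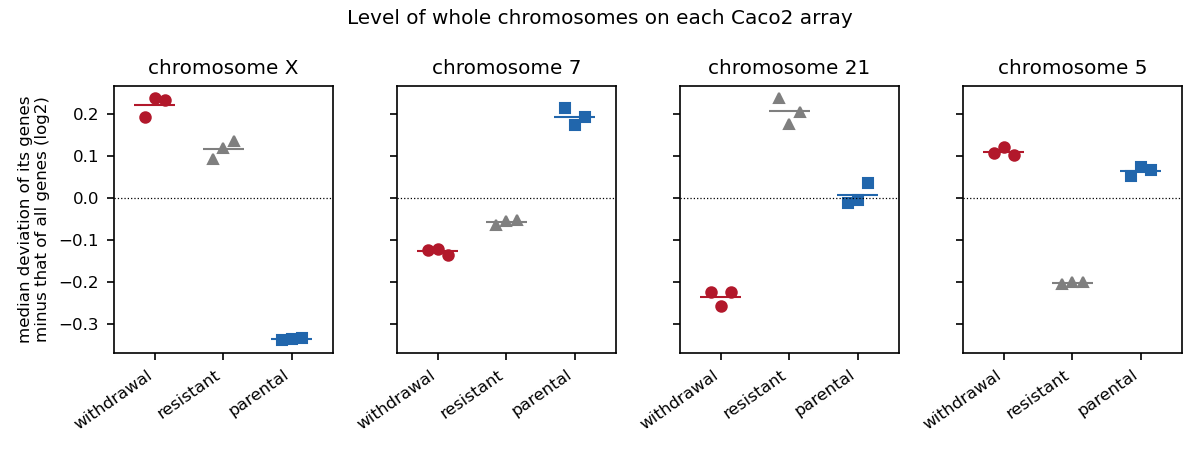
Median deviation of a chromosome's genes from their mean over the 9 Caco2 arrays, minus the median of all genes (y axis, log2), for chromosomes X, 7, 21 and 5 on each withdrawal, resistant and parental array (x axis). Lines are group means. Withdrawal and parental arrays are far apart for chromosomes X and 7, and close together for chromosome 5, where resistant arrays stand alone near -0.20.

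The shift ran along the whole of both chromosomes. Expressed genes were taken in their order along each chromosome in runs of 25. All 11 runs of the X chromosome had positive median changes, from 0.50 to 0.68, and all 17 runs of chromosome 7 had negative ones, from -0.45 to -0.28. Withdrawal minus resistant was uneven over the same runs: on the X chromosome it was -0.97 in the run from MORC4 to CUL4B and 1.63 in the run from BCAP31 to VAMP7, and on chromosome 7 it was 0.47 in the run from BZW2 to SPMIP4 and -0.52 in that from ZNF655 to ZNHIT1. Resistant minus parental ran from -1.05 (BCAP31 to VAMP7) to 1.54 (MORC4 to CUL4B) on the X chromosome. On chromosome 7 it ran from -0.75 (BZW2 to SPMIP4) to 0.13 (ZNF655 to ZNHIT1). Resistant cells thus did not lie between the other states in every run. The arrays measured RNA, and DNA was not analysed here.

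**Figure D5:**
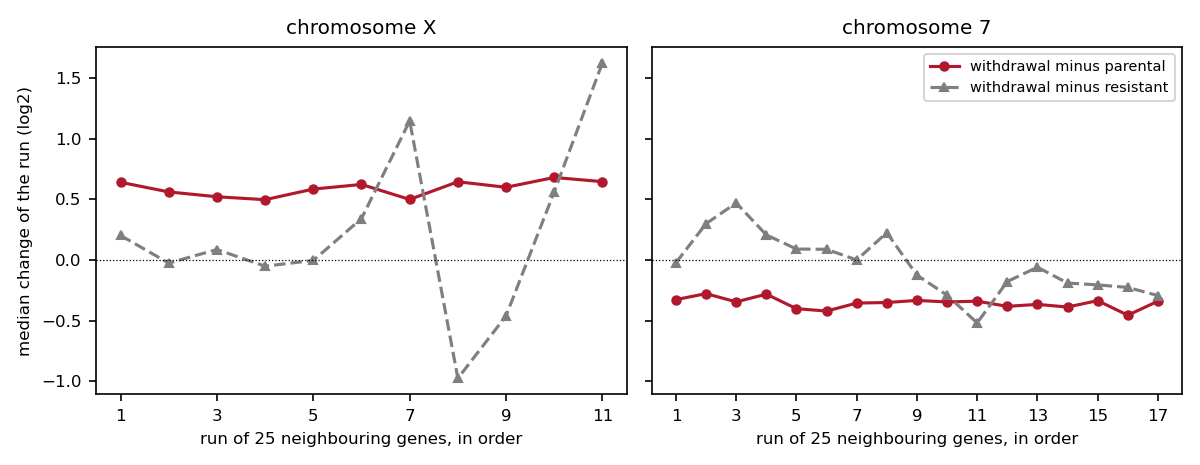
Median change (y axis, log2) of successive runs of 25 neighbouring genes above background (x axis, order along the chromosome; the last run of each is shorter) on chromosomes X and 7. Withdrawal minus parental (red circles) stays between 0.50 and 0.68 on X and between -0.45 and -0.28 on 7, while withdrawal minus resistant (grey triangles) changes sign along each chromosome.

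Bright X-linked genes moved by small steps. MAGT1, a magnesium transporter, read 15.71, 15.73 and 15.66 in withdrawal arrays, against 15.28, 15.16 and 15.27 in parental arrays (0.46, SE 0.108, adjusted p = 0.0476). ATP6AP2, a subunit of the proton pump, rose by 0.54 and the tetraspanin TSPAN6 by 0.43, while the translation factor EIF2S3 (0.33, adjusted p = 0.164), the ribosomal protein RPS4X (0.19, adjusted p = 0.616) and the actin-binding TMSB4X (0.31, adjusted p = 0.268) did not pass. Withdrawal arrays were above parental arrays in each of these genes. The largest X-linked rises after TLR7 were those of GABRA3, a GABA receptor subunit (2.17, SE 0.245, 4.51-fold), the secreted SRPX2 (1.60, at least 2.08-fold), TMEM185A (1.51) and the gap-junction protein GJB1 (1.50, SE 0.127, 2.82-fold). GABRA3 read 12.87, 13.22 and 13.17 in withdrawal arrays, against 10.89, 10.82 and 11.03 in parental arrays, and averaged 3.80 in resistant arrays, below background. The X-linked gene that fell was NOX1, the superoxide-producing oxidase of colon epithelium (-0.77, SE 0.149). On chromosome 7, falls after CDCA7L, AGR2 and ZNF680 were led by the kinase CDK14 (-1.52, SE 0.155), the mitochondrial protease IMMP2L (-1.48) and the transcription factor TFEC (-1.40), and CYP3A5 was the gene that rose.

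When each gene was measured relative to the median of its own chromosome on each array, 531 genes were called, 450 of them also called without that step, and 299 of the genes above background (195 higher, 104 lower). Of X-linked genes 10 were then called and of chromosome 7 genes 13. TLR7 was still higher, by 2.55, and AGR2 (-2.55), CDCA7L (-3.08) and ZNF680 (-2.42) were still lower. XIAP (0.11), PGK1 (0.06), NDUFA1 (0.28) and IL2RG (0.28) were not called on that scale.

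SW48 and LIM1215 cells differed from Caco2 in the same comparison. In the fit of all 27 arrays, 933 genes were called in Caco2 (5.28%), 722 in SW48 (4.08%) and 3724 in LIM1215 (21.1%). LIM1215 parental replicate 3 stood apart from the other arrays of its group, and without it 5019 were called there. Caco2 and SW48 shared 33 genes called in the same direction, 3.54% of the Caco2 and 4.57% of the SW48 calls, and 31 called in opposite directions. Caco2 and LIM1215 shared 133 in the same direction, 14.3% of the Caco2 and 3.57% of the LIM1215 calls, and 125 in opposite directions. Without LIM1215 parental replicate 3 these were 169 and 153. The shared calls were thus about as often opposite as alike.

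The difference itself was tested as Caco2 change minus the other line's change. It passed for 939 genes against SW48 (5.31%), 504 higher and 435 lower in Caco2, a 53.7% share of higher calls that was 40.2% after median centring. Against LIM1215 it passed for 2365 genes (13.4%), 1196 higher and 1169 lower, a 50.6% share that was 39.5% after median centring, and for 3960 without LIM1215 parental replicate 3. X-linked genes had a median change of -0.01 in SW48 and -0.05 in LIM1215 (-0.09 without LIM1215 parental replicate 3), against 0.60 in Caco2. The difference passed upward for 90 of the 267 X-linked genes against SW48 and for 122 against LIM1215, and downward for 1 in each. Chromosome 7 genes had medians of 0.00 in SW48 and -0.06 in LIM1215 (-0.08 without LIM1215 parental replicate 3). Of the 414, the difference passed downward for 62 against SW48 and 100 against LIM1215, and upward for 4 and 15.

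MT2A changed by 0.24 in SW48 and -0.10 in LIM1215, and MT1X by 0.60 and -0.31, none of which passed. SERPINA1 rose in SW48 as well (1.30, adjusted p = 2.03e-06), and CASP4 fell there (-1.42, adjusted p = 0.00115). CEACAM6 and CEACAM5 rose in LIM1215 (1.81 and 1.42), opposite to Caco2, while CEACAM5 fell in SW48 (-2.17). AXIN2 fell in both other lines (-0.50 in SW48 and -0.61 in LIM1215). LYZ fell in LIM1215 (-1.78) and so did ANXA6 (-1.41).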

How the data were processed

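RNA from 3 colorectal cancer lines in 3 states was measured on 27 one-colour Affymetrix whole-transcript arrays, 3 per group, from 250 ng of total RNA, per the labels' protocols. The values were used as deposited and were read as log2 intensities from their range, while their software, background correction and normalization are not stated by the labels or headers. Quartiles were alike within a line and differed between lines, so levels were not compared between lines. Of 24351 probe sets, 612 negative and 2197 positive controls were left out, and 17709 of 21448 transcript probe sets had a gene symbol. The brightest probe set stood for each of 20 genes that had more than 1, which left 17687 genes. Arrays give no read depth, and the number of arrays limits the precision.

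Withdrawal and parental arrays were compared with limma 3.58.1 in R 4.3.3, with a mean for each of the 3 Caco2 states (6 residual and 3.50 prior degrees of freedom), by a two-sided test, p-values being adjusted by Benjamini-Hochberg across every gene. Differences between lines were interaction contrasts in a fit of all 27 arrays. A group was near background when its mean was under the mean, over its arrays, of the 95th percentile of the negative controls. Where the dimmer group was near background the fold is a lower bound against that level ("at least"), and where both were, no fold is given. The named genes were the 12 largest called changes in each direction with arrays that did not overlap and at least 1 group above background, up to 4 called members of each of 39 lists or, where none was called, its largest difference, EGFR, and the 3 largest differences between lines each way. Genes named beyond that rule, as members of a list or a chromosome, were chosen after their values were seen. The genes and lists were chosen with earlier results of these data known. The procedure was run on simulated data with noise independent between genes and no shift of whole chromosomes. That run therefore does not cover such shifts. The alternatives were other sets of arrays, quantile normalization, median centring, a mean trend with robust moderation, dim genes left out, other probe set rules, a replicate block and each array left out. Deviations of arrays with the same replicate number did not correlate between groups, so the numbers were not used as pairs. Promoters are from RefSeq (GRCh38.p14), and 7 genes of the metallothionein and zinc list had one in the table used.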

Additional observations from a re-analysis of the deposited data

Results flagged for a closer look

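The results here were picked because the change from parental to withdrawal cells differed between lines by a test of the difference itself (limma, adjusted p under 0.05, 3 arrays per group). Against SW48 939 genes differed. ALDH3A1, an aldehyde dehydrogenase, had the largest positive difference, 6.80 (SE 0.349), with a change of 1.12 in Caco2 and -5.68 in SW48. The gene was near background in both Caco2 groups and lost its Caco2 call in 5 of 17 settings, so its difference came mainly from SW48. CD47 differed by 4.96 (-0.74 in SW48) and GPR83 by 3.62 (-0.42 in SW48). MGST1 differed by -4.81 (-0.27 in SW48) and PSD3 by -4.09 (-0.39 in SW48). The glucose transporter SLC2A3 differed by -4.42, with 0.06 in Caco2 and 4.49 in SW48, so that difference came from SW48.

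Against LIM1215 2365 genes differed, and 3960 without LIM1215 parental replicate 3, which stood apart from its group. CD47 differed by 4.68 (-0.46 in LIM1215) and LYZ by 3.99 (-1.78 in LIM1215). The glutamate transporter SLC1A3 differed by 4.76, with -4.72 in LIM1215. HAND1, a transcription factor, differed by -6.36 (6.15 in LIM1215). IGFBP1, a carrier of insulin-like growth factors, differed by -6.17 (5.98 in LIM1215), and by -8.11 without LIM1215 parental replicate 3. The collagenase MMP1 differed by -5.81 (5.21 in LIM1215). For SLC1A3, HAND1, IGFBP1 and MMP1 the large change was that of LIM1215.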

How the results depend on the processing

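All 24 genes named for the size of their change kept their call in up to 17 alternatives, which reuse the arrays that picked them. Of 84 named genes that were called, 33 lost the call in at least 1 alternative and 0 changed sign. Some of the 33 are named above without a count of lost settings. Among them were NDUFA1 (lost in 8 of 16), PGK1 (7 of 16), CD74 (6 of 17), GATA4 (6 of 16), AKR1C2 (5 of 17) and AGR3 (5 of 15). The count of 705 called genes was 1255 with trend and robust moderation, and the 505 above background became 1004 there and 1005 with dim genes left out, where fewer genes were tested. The 60 lower genes of chromosome 7 became 104 in the fit of all 27 arrays, 151 with trend and robust moderation, 144 with dim genes left out and 28 with a replicate block, and their median was -0.37 after median centring. 2 alternatives were chosen after seeing the data: without the genes of chromosomes 7 and X the counts were 431 and 271 above background, and relative to the gene's own chromosome they were 531 and 299. Leaving out each array in turn gave 347 to 457 genes, 233 to 312 above background, 52 to 79 higher on the X chromosome (median 0.56 to 0.60) and 20 to 26 lower on chromosome 7 (median -0.37 to -0.34), with fewer degrees of freedom in each fit. The same range was 3245 to 3780 against resistant cells, 692 to 1353 for the difference from SW48 and 1604 to 3960 for that from LIM1215, the highest without LIM1215 parental replicate 3. The replicate numbers do not pair the samples (r of the deviations 0.01, -0.03 and 0.00), and with the replicate block 530 genes were called, 313 higher and 217 lower. Where no other value is given the cause of a moved count was not tested. Genes near background in both groups, 200 of the 705, have no reliable size of change.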
